A study of Caenorhabditis elegans with 30 samples.

Results

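The neuropeptide genes of Caenorhabditis elegans were followed across 6 genotypes by taking each gene whose common name in the deposited tables is flp or nlp followed by a number. This gave 75 of 20484 genes: 31 flp genes and 44 nlp genes. The 11 genes nlp-24 to nlp-34, of which most are known as epidermal antimicrobial peptide genes, were kept apart from the other 64. The rule takes names alone and no measured value, but it was set with earlier results of these data known.

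Neuropeptides are made as long precursor proteins, which are cut at basic residues by a proprotein convertase, trimmed by a carboxypeptidase and, in most cases, amidated at the C-terminus. They are packed into dense-core vesicles, released when calcium rises, and act mostly on G protein-coupled receptors over longer distances and times than classical transmitters. The flp genes encode FMRFamide-like peptides, which end in arginine and phenylalanine amide. The nlp genes are a mixed class of other neuropeptide-like proteins. In the worm these peptides act in locomotion, feeding, egg laying, sleep and male mating. Several genes of the nlp-24 to nlp-34 group are instead expressed in the epidermis, where nlp-29 is induced by fungal infection and wounding.

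RNA came from whole late larvae of the fourth stage, kept at 20 °C with OP50 as food after a bleach synchronisation. Of the mutants, daf-2 carried the allele e1370 and nuo-6 the allele qm200. The H3.3 double mutant, called the double mutant below, had his-71(ok2289) beside his-72(tm2066). The daf-2 triple mutant and the nuo-6 triple mutant carried both of these together with e1370 or qm200, and wild type (WT) carried none of the 4. Each of the 6 genotypes had 5 biological replicates and no other treatment. daf-2 encodes the insulin receptor, nuo-6 a subunit of respiratory chain complex I, and his-71 and his-72 the broadly expressed forms of the replacement histone H3.3. The alleles were present in all cells of the animal. Other genes for H3.3 variants were not deleted, so without H3.3 means here without his-71 and his-72.

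The authors deposited 1 FPKM value (fragments of a transcript, scaled to its length and to the mapped total) per gene and genotype, called a pool below, and values of single replicates were not analysed here. How far replicates differed is unknown from this, no difference could be tested, and each fold is a ratio of the authors' 2 values. A gene was compared where both pools were above 0 and the higher one had at least 5 FPKM, and it is called higher or lower where the ratio reached 2. The sequencing depth and the counting error are unknown. The deleted genes behaved as labelled: his-71 was at or under 0.372 FPKM in the 3 pools without H3.3 and at or above 223 in the other 3, and his-72 at or under 0.408 and at or above 226. Summed FPKM ran from 935102 in the daf-2 triple mutant to 1508331 in nuo-6. The pools also differed in reproductive and adult transcripts: 10 germline markers summed to 1220 FPKM in the daf-2 triple mutant, 83.2 in daf-2, 213 in the nuo-6 triple mutant, 586 in nuo-6, 484 in the double mutant and 404 in WT. FPKM is a share of all RNA in a whole animal, so fewer cells of a type and less RNA per cell cannot be told apart.

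Of the 75 genes, 71 reached 5 FPKM in at least 1 pool. The exceptions were nlp-22, nlp-23, flp-23 and nlp-32. On the FPKM scale, which is per length, nlp-36 had the highest mean level over the 6 pools. It had 376 FPKM in the daf-2 triple mutant, 799 in daf-2, 540.2 in the nuo-6 triple mutant, 708 in nuo-6, 568 in the double mutant and 613 in WT, and nlp-24 and nlp-33 of the epidermal group followed. nlp-40, whose peptide is released by the intestine to time the defecation cycle, had 252 FPKM in the daf-2 triple mutant, 463 in daf-2, 273 in the nuo-6 triple mutant, 345 in nuo-6, 299 in the double mutant and 268 in WT. The value of nlp-36 is uncertain, since the tables list it at the same position as dars-1. In all, 13 of the 75 genes share a listed position with another gene, among them flp-1, flp-2, flp-3, flp-11, flp-28, nlp-2, nlp-12, nlp-24, nlp-35 and nlp-46.

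Among the 61 of the 64 genes that reached 5 FPKM, 51 had their highest value in the daf-2 pool, and 31 had their lowest in the nuo-6 pool. Their median level was 50.8 FPKM in the daf-2 triple mutant, 87.7 in daf-2, 59.3 in the nuo-6 triple mutant, 30.2 in nuo-6, 39.05 in the double mutant and 37.5 in WT. The median of 18 neuron markers, genes of synaptic release and transmitter use that encode no neuropeptide, was 15.3 FPKM in the daf-2 triple mutant, 23.9 in daf-2, 14.0 in the nuo-6 triple mutant, 8.48 in nuo-6, 15.4 in the double mutant and 12.9 in WT. Both medians were thus highest in daf-2 and lowest in nuo-6. For all genes, the shares with their highest value in daf-2 or their lowest in nuo-6 were not computed.

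**Figure D1:**
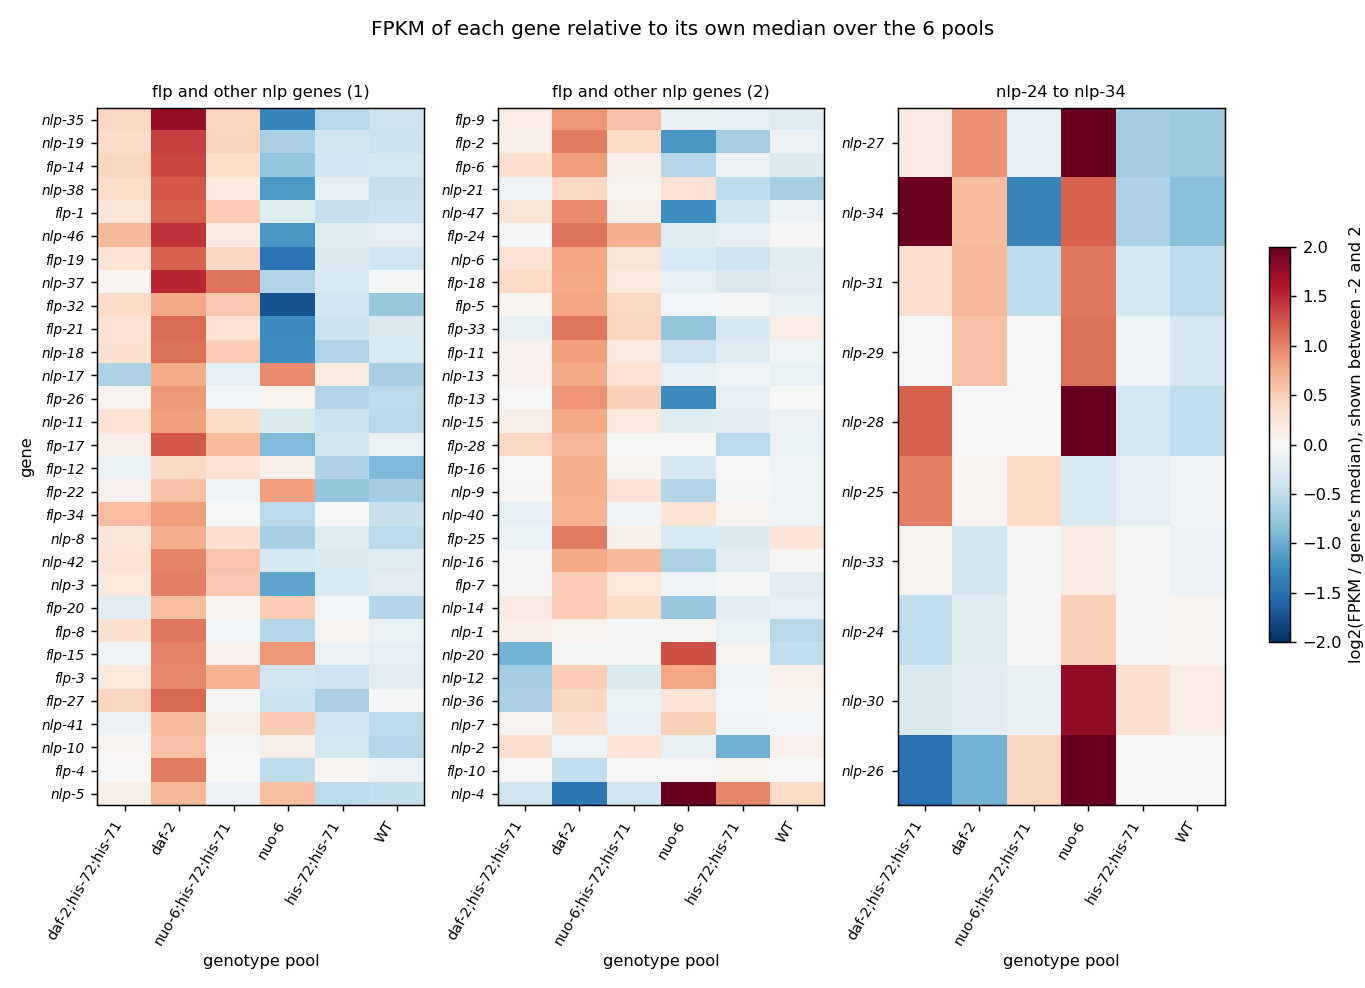
Colour gives log2 of a gene's FPKM over its own median across the 6 genotype pools (columns), for 60 flp and other nlp genes (left and middle) and 10 genes of nlp-24 to nlp-34 (right), sorted by the daf-2 against WT ratio. Genes under 5 FPKM in every pool and nlp-39 are not drawn. The daf-2 column is the highest for 51 of 61 genes of the first set, and the nuo-6 column for 8 of the 10 genes on the right. The matching shares of all genes were not computed.

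Reduced insulin receptor function with H3.3 present was examined first, in daf-2 against WT. Of 59 compared flp and other nlp genes, 38 were higher and 0 lower, where 15.1% of all compared genes were higher and 13.2% lower. Their median log2 ratio was 1.14, beside 0.01 for all 11405 compared genes. Both families contributed, with 21 of 30 flp genes and 17 of 29 other nlp genes higher, and 57 of the 59 had a ratio above 1. Of the 59, 58 reached 5 FPKM in both pools, and 38 of these were higher, where 11% of all genes that reached it in both were.

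The largest ratio was that of nlp-35, with 63.4 FPKM in the daf-2 triple mutant, 160.0 in daf-2, 64.7 in the nuo-6 triple mutant, 19.3 in nuo-6, 32.7 in the double mutant and 36.1 in WT, which is 4.44-fold higher in daf-2 than in WT. It was followed by nlp-19, with 43.8 FPKM in daf-2 and 12.6 in WT (3.49-fold). flp-14 had 89.8 FPKM in the daf-2 triple mutant, 169 in daf-2, 84.6 in the nuo-6 triple mutant, 38.6 in nuo-6, 51.2 in the double mutant and 52.5 in WT. The daf-2 pool thus stood well above the other 5 for each of these genes. nlp-38, a gene of the myoinhibitory peptide family, had 54.4 FPKM in daf-2 and 16.99 in WT (3.202-fold). flp-1, whose peptides are needed for coordinated sinusoidal movement, had 139 FPKM in the daf-2 triple mutant, 269.7 in daf-2, 166 in the nuo-6 triple mutant, 98.0 in nuo-6, 84.8 in the double mutant and 86.5 in WT. It was the most abundant flp gene of the daf-2 pool, and its value too is uncertain because daf-10 is listed at the same position.

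Genes with known behavioural roles were among the 38. flp-21, a ligand of the NPR-1 receptor that suppresses social feeding, was 2.68-fold higher, with 90.3 FPKM in daf-2 and 33.6 in WT. flp-18, another ligand of that receptor, lay just inside the threshold at 2.002-fold. flp-17, a ligand of the egg-laying receptor EGL-6, was 2.58-fold higher, whereas flp-10, another ligand of EGL-6, had 39.002 FPKM in daf-2 and 55.0 in WT and did not reach the threshold. nlp-37, which encodes a pigment-dispersing factor peptide and is also called pdf-2, was 2.92-fold higher, and nlp-3, which promotes egg laying, 2.35-fold. Of all 75 genes the nearest to the threshold from outside was nlp-26 of the epidermal group, 1.93-fold lower in daf-2.

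Other parts of the peptide pathway were set beside the precursors. Most receptor genes were too low to compare evenly: 26 of the 90 on the list were compared, but 18 of these reached 5 FPKM in daf-2 alone and so entered through the pool where they are high. Of the 8 that reached 5 FPKM in both pools, 3 were higher and 0 lower, where 11% of all such genes were higher and 7.36% lower. Among the 18, frpr-5 had 26.2 FPKM in daf-2 and 4.72 in WT. Of 14 genes for peptide processing and release 3 were higher and 0 lower, a share not far from the 15.1% of all genes, with a median log2 ratio of 0.82. The 3 were unc-31, needed for dense-core vesicle release (2.72-fold), pghm-1, which takes part in amidation (2.11-fold), and sbt-1, a chaperone of the convertase EGL-3 (311.8 FPKM in daf-2 and 151 in WT, 2.07-fold). The convertase gene egl-3 had 150.5 FPKM in daf-2 and 76.4 in WT, and the carboxypeptidase gene egl-21 had 228 FPKM in daf-2 and 117 in WT.

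Neuron markers also stood higher. In daf-2 against WT all 16 compared neuron markers had a ratio above 1, 4 of them higher, with a median log2 ratio of 0.82. Of the 16, 14 reached 5 FPKM in both pools, with 4 higher, where 11% of all such genes were, and a median of 0.77. The rest entered through daf-2, the pool where they are high. With the pools scaled to the median of the 16 markers, an alternative chosen after the data were seen, 1 of the 59 neuropeptide genes (nlp-35) remained higher and 1 was lower. The share of all genes on that scale was not computed. Germline and sperm markers stood far lower in daf-2 than in WT, with germline sums of 83.2 FPKM in daf-2 and 404 in WT and sperm sums of 1.25 FPKM in daf-2 and 42.1 in WT, and muscle markers summed to 2148 FPKM in daf-2 and 2662 in WT. The part of these differences in the neuropeptide values was not tested.

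**Figure D2:**
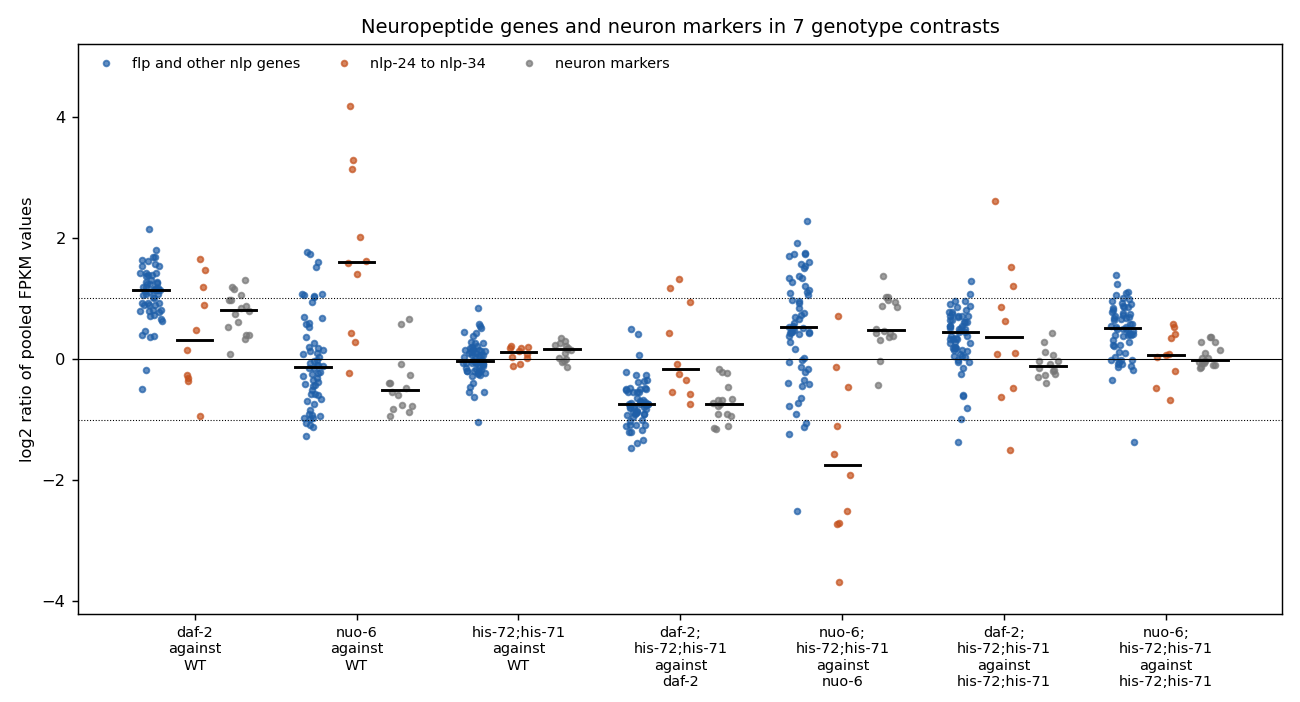
Each point is the log2 ratio of a gene's pooled FPKM values in 1 of 7 contrasts, for flp and other nlp genes (blue), nlp-24 to nlp-34 (orange) and neuron markers (grey). Black bars are medians and dotted lines mark 2-fold. In daf-2 against WT the blue median is 1.14 and the grey one 0.82, and in nuo-6 against WT the orange median is 1.602, and nlp-39, far above the range in 2 contrasts, is not drawn but counts in the medians.

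With loss of H3.3 alone, few genes of any kind were 2-fold from WT, and the neuropeptide genes were no exception. In the double mutant against WT, 0 of 60 neuropeptide genes were higher and 1 lower, where 1.14% of all genes were higher and 0.902% lower, and the median log2 ratio was -0.03. Both counts are near the shares of all genes. The lower gene was nlp-2, with 2.64 FPKM in the double mutant and 5.46 in WT, a gene that shares its listed position with nlp-22 and nlp-23. The next largest ratio was that of nlp-17, at 77.2 FPKM in the double mutant and 43.1 in WT, short of the threshold. All 10 compared genes of nlp-24 to nlp-34 were within 2-fold, as were nearly all compared genes.

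The daf-2 mutation without H3.3 was followed in the daf-2 triple mutant against the double mutant, a contrast that shares no pool with daf-2 against WT. Of 61 compared genes 3 were higher and 1 lower, where 13.2% of all genes were higher and 13.5% lower, and the median log2 ratio was 0.44. Among genes that reached 5 FPKM in both pools, 1 of 58 was higher (flp-27) and 0 lower, where 7.41% of all such genes were higher and 9.98% lower. Most genes still lay above 1, 51 of the 61, but few reached 2-fold, and with a ratio of 1.5 in place of 2 the count of higher genes was 22. The share of all genes at a ratio of 1.5 was not computed. The higher genes were flp-27 (40.9 FPKM in the daf-2 triple mutant and 19.4 in the double mutant, 2.10-fold), nlp-2 (6.44 FPKM in the daf-2 triple mutant and 2.64 in the double mutant) and nlp-39. The lower gene was nlp-4, with 2.77 FPKM in the daf-2 triple mutant and 7.12 in the double mutant.

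Set side by side, the daf-2 ratio was smaller without H3.3 than with H3.3 for 56 of the 59 genes compared in both backgrounds, while 58% of all genes had a smaller ratio. The median of the difference in log2 ratio was -0.74 for the neuropeptide genes and -0.18 for all 10986 genes. A difference of at least 1 on the log2 scale downward was seen for 12 of the 59 and for 14.4% of all genes, and upward for 1 and for 14.0%. The shift of the neuropeptide genes was thus broad rather than large in single genes. Neuron markers that reached 5 FPKM in both pools had a median log2 ratio of -0.11 without H3.3, beside 0.77 with it.

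Read as H3.3 loss within the mutant, the daf-2 triple mutant against daf-2, 11 of 60 genes were lower and 1 higher, where 12.3% of all genes were lower and 17.1% higher. The median log2 ratio was -0.74, beside -0.15 for all genes, and 56 of the 60 had a ratio below 1. The largest ratio downward was that of nlp-37, with 46.6 FPKM in the daf-2 triple mutant and 129 in daf-2 (2.77-fold lower). nlp-17 had 43.9 FPKM in the daf-2 triple mutant and 115 in daf-2 (2.62-fold lower), and nlp-35 was 2.52-fold lower. flp-33 had 40.7 FPKM in the daf-2 triple mutant and 94.1 in daf-2, and flp-25 had 10.3 FPKM in the daf-2 triple mutant and 23.1 in daf-2. nlp-12, which encodes a cholecystokinin-like peptide of a proprioceptive neuron, had 44.4 FPKM in the daf-2 triple mutant and 102 in daf-2. Of the 9 receptor genes that reached 5 FPKM in both pools 4 were lower and 0 higher. Among all genes that reached it in both, 11.5% were lower and 9.36% higher.

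The count of 11 depended on scaling. With pools scaled to equal median ratio it was 6, and relative to the neuron markers, whose median log2 ratio was -0.73, it was 0. The share of all genes lower on these scales was not computed. Germline markers summed to 1220 FPKM in the daf-2 triple mutant and 83.2 in daf-2, and 8 adult onset genes to 6376 FPKM in the daf-2 triple mutant and 9.63 in daf-2. The part of this gain of other transcripts in the neuropeptide values was not tested.

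**Figure D3:**
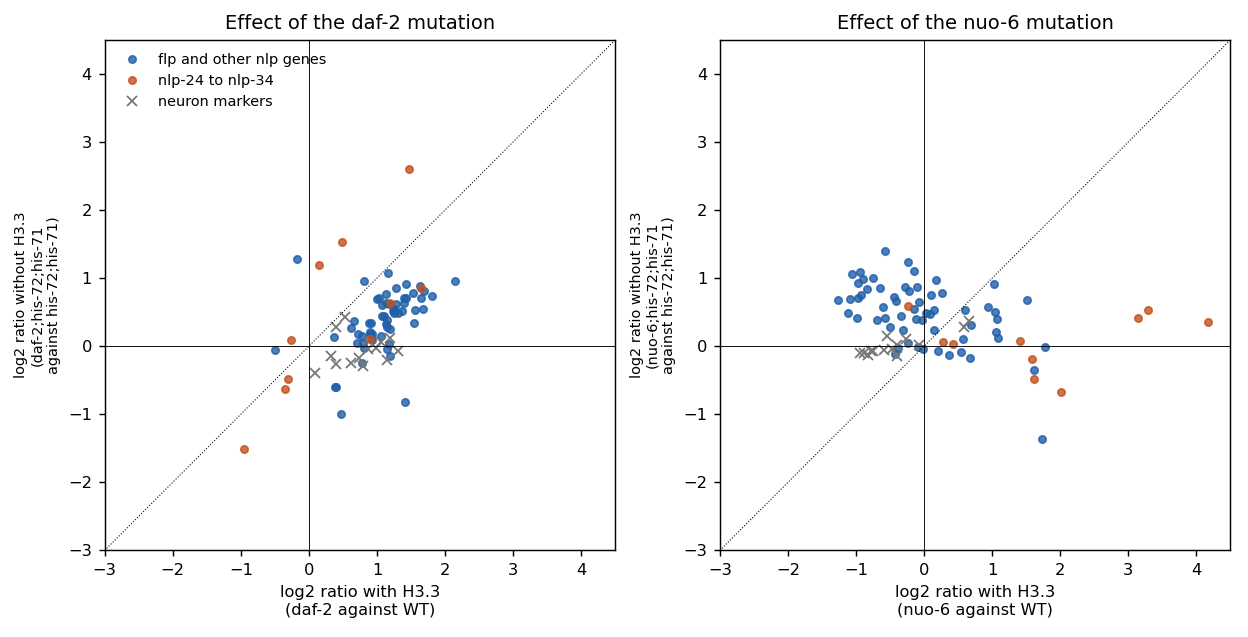
Each point is a gene, with the log2 ratio of the mutation with H3.3 on the x axis and without H3.3 on the y axis, for daf-2 (left) and nuo-6 (right), and the dotted diagonal marks equal ratios. For daf-2, 56 of 59 flp and other nlp genes (blue) lie below the diagonal, and for nuo-6, 42 of 60 lie above it. Of all genes compared in both backgrounds, which are not drawn, 58% had a smaller ratio without H3.3 for each mutation.

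The nuo-6 mutation gave a mixed picture. In nuo-6 against WT, 9 of 60 flp and other nlp genes were higher and 4 lower, where 20.6% of all genes were higher and 5.47% lower. The median log2 ratio was -0.14, beside 0.12 for all genes. The lower genes were flp-13, flp-19, flp-2 and nlp-47. flp-13, which promotes sleep after cellular stress, had 50.8 FPKM in the daf-2 triple mutant, 94.2 in daf-2, 70.4 in the nuo-6 triple mutant, 21.1 in nuo-6, 44.2 in the double mutant and 50.7 in WT, 2.40-fold lower in nuo-6 than in WT. nlp-47, which encodes a gonadotropin-releasing hormone-like peptide, had 14.9 FPKM in nuo-6 and 32.5 in WT, flp-19 had 19.1 FPKM in nuo-6 and 40.7 in WT, and flp-2 had 20.8 FPKM in nuo-6 and 43.2 in WT. For each of the 4 genes nuo-6 was the lowest of the 6 pools.

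The higher genes were led by nlp-20, with 91.6 FPKM in the daf-2 triple mutant, 173 in daf-2, 180.4 in the nuo-6 triple mutant, 427 in nuo-6, 183 in the double mutant and 125 in WT (3.41-fold higher in nuo-6 than in WT). nlp-4 had 15.8 FPKM in nuo-6 and 4.76 in WT, nlp-17 had 132 FPKM in nuo-6 and 43.1 in WT, and flp-22 had 182 FPKM in nuo-6 and 63.5 in WT. The others, flp-12, flp-15, flp-20, nlp-5 and nlp-41, were between 2.03-fold and 2.11-fold higher. nlp-4 was under 5 FPKM in WT.

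These counts moved with transcript length. Short transcripts stood higher in the nuo-6 pool as a whole: the median log2 ratio of all compared genes was 1.001 for transcripts under 500 bases, 0.45 from 500 to under 1000, 0.15 from 1000 to under 2000 and -0.18 for 2000 or more. The median neuropeptide gene is short, 602 bases beside 1161 for all genes, and relative to all genes of the same length class the median log2 ratio of the 60 genes was -0.65. On that scale, an alternative chosen after the data were seen, 1 of the 60 was higher (nlp-4) and 19 were lower. The 9 higher genes had a median length of 494 bases and the 4 lower ones of 634.5. Neuron markers had a median log2 ratio of -0.51 in nuo-6 against WT, and 12 of 14 had a ratio below 1. Of the 14, 13 reached 5 FPKM in both pools, with a median of -0.48. Scaled to the median of the 14 markers, 15 of the 60 genes were higher and 0 lower. Scaled to equal median ratio over all genes, 4 were higher and 10 lower. Shares of all genes were not computed on these scales or relative to the length class. The markers have longer transcripts than the median neuropeptide gene, from 807 bases in snb-1 to 6468 in unc-13. Neither the scaling to markers nor that to equal median ratio takes length into account. What part length played was not tested.

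**Figure D4:**
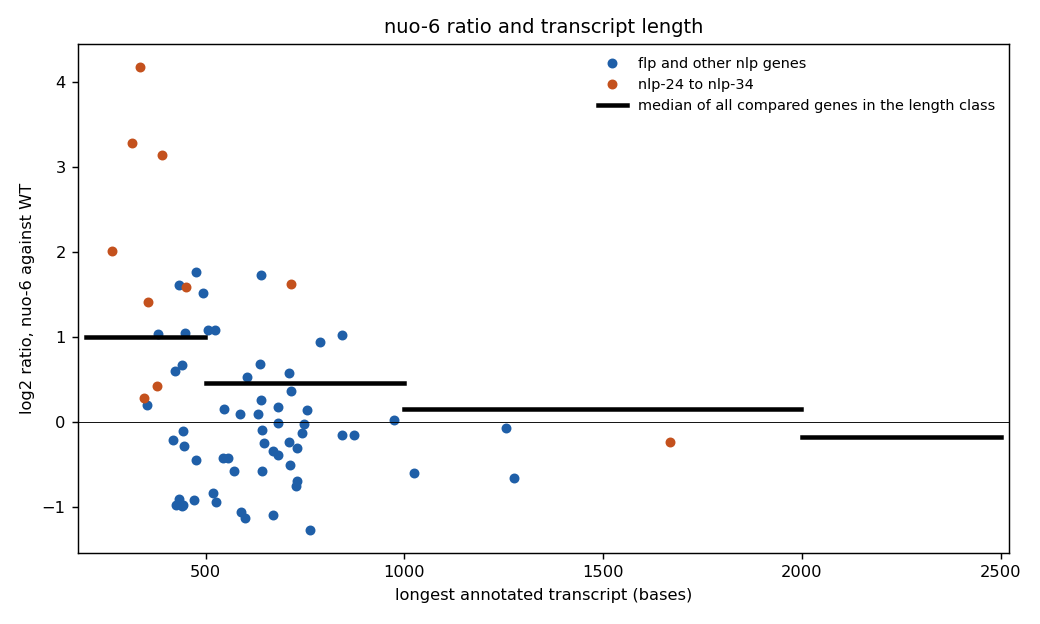
The log2 ratio of nuo-6 against WT is plotted against the length of the longest annotated transcript for flp and other nlp genes (blue) and nlp-24 to nlp-34 (orange), with the median of all compared genes in each length class as a black line. Under 500 bases the median of all genes is 1.001 and that of the blue genes -0.10, while the orange genes have a median of 1.80.

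Without H3.3 the nuo-6 mutation was accompanied by slightly higher neuropeptide values. In the nuo-6 triple mutant against the double mutant, 6 of 60 genes were higher and 1 lower, where 5.76% of all genes were higher and 6.73% lower. The median log2 ratio was 0.51, beside -0.06 for all genes, and 49 of the 60 had a ratio above 1. nlp-37 had 96.4 FPKM in the nuo-6 triple mutant and 36.7 in the double mutant (2.63-fold), and nlp-18, which encodes cholecystokinin-like receptor ligands, had 107 FPKM in the nuo-6 triple mutant and 50.7 in the double mutant. flp-2 had 61.3 FPKM in the nuo-6 triple mutant and 29.5 in the double mutant. The other 3, flp-3, flp-17 and nlp-2, were 2.15-fold, 2.0002-fold and 2.35-fold higher. nlp-4, at 2.77 FPKM in the nuo-6 triple mutant and 7.12 in the double mutant, was the lower gene. The neuron markers had a median of -0.01 in this contrast and length classes differed little, between 0.08 and -0.11 in their medians. Of the 6 higher genes, 3 (flp-2, flp-3 and nlp-2) share a listed position with other genes.

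Between the triple mutant and its parent, the nuo-6 triple mutant against nuo-6, 19 of 60 genes were higher and 4 lower, where 6.92% of all genes were higher and 16.9% lower. The median log2 ratio was 0.52, beside -0.10 for all genes. flp-32 had 52.5 FPKM in the nuo-6 triple mutant and 10.8 in nuo-6 (4.88-fold higher), flp-19 had 71.8 FPKM in the nuo-6 triple mutant and 19.1 in nuo-6 (3.76-fold), and nlp-35 had 64.7 FPKM in the nuo-6 triple mutant and 19.3 in nuo-6 (3.35-fold). flp-13 was 3.34-fold, nlp-18 3.33-fold and nlp-37 3.24-fold higher. For all 6 genes the nuo-6 triple mutant lay above the double mutant and WT as well. The lower genes were nlp-4 (5.70-fold), nlp-20 (2.37-fold), nlp-17 (2.17-fold) and nlp-12 (2.07-fold). This contrast and nuo-6 against WT share the nuo-6 pool. Peptide processing and release genes were 3 of 13 higher, namely egl-3 (89.04 FPKM in the nuo-6 triple mutant and 43.1 in nuo-6), egl-21 (141 FPKM in the nuo-6 triple mutant and 70.3 in nuo-6) and unc-31, which was under 5 FPKM in nuo-6. Of the 4 receptor genes that reached 5 FPKM in both pools 0 were higher or lower, where 3.94% of all such genes were higher and 9.28% lower. The median ratio of neuron markers was 0.48 on the log2 scale (0.44 for those that reached 5 FPKM in both pools), and that of all transcripts under 500 bases -0.74. Scaled to the neuron markers 10 genes were higher and 8 lower, and relative to the length class 26 were higher and 1 lower. Shares of all genes on these scales were not computed.

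The group nlp-24 to nlp-34 followed another course. In nuo-6 against WT, 7 of 10 compared genes were higher and 0 lower, where 20.6% of all genes were higher and 5.47% lower, and the median log2 ratio was 1.602, beside 0.12 for all genes. All 10 reached 5 FPKM in every pool. nlp-28 had 43.3 FPKM in the daf-2 triple mutant, 19.2 in daf-2, 19.2 in the nuo-6 triple mutant, 247 in nuo-6, 15.007 in the double mutant and 13.7 in WT, 18.05-fold higher in nuo-6 than in WT. nlp-27 had 99.0 FPKM in the daf-2 triple mutant, 166 in daf-2, 78.6 in the nuo-6 triple mutant, 518 in nuo-6, 54.6 in the double mutant and 53.1 in WT (9.75-fold). nlp-26, listed elsewhere on the same chromosome, had 26.5 FPKM in the daf-2 triple mutant, 38.6 in daf-2, 100.3 in the nuo-6 triple mutant, 657 in nuo-6, 75.1 in the double mutant and 74.4 in WT (8.83-fold). In all 3 genes the nuo-6 pool stood several times above every other pool.

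The other higher genes were nlp-34 (4.03-fold), nlp-30 (3.07-fold), nlp-31 (2.999-fold) and nlp-29 (2.66-fold, 179 FPKM in nuo-6 and 67.2 in WT). nlp-24 and nlp-33, the most abundant of the group, differed little, with 816 FPKM in nuo-6 and 608 in WT for nlp-24, and 586 FPKM in nuo-6 and 482 in WT for nlp-33. nlp-25 had 12.5 FPKM in nuo-6 and 14.8 in WT. nlp-32 stayed under 5 FPKM in every pool and was not compared, though its highest value, 4.37 FPKM, was also in nuo-6.

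Of these 11 genes, 6 lie together on chromosome V, from 3978828 to 3989770 in the authors' tables, in the order nlp-34, nlp-31, nlp-30, nlp-29, nlp-28 and nlp-27. The build is not given in the sources used here. All 6 cluster genes were higher in nuo-6 than in WT. In the nuo-6 triple mutant against the double mutant, 0 of the 10 compared genes were higher and 0 lower, with a median log2 ratio of 0.07. This count is near the share of all genes, of which 5.76% were higher and 6.73% lower. The nuo-6 ratio was smaller without H3.3 for 9 of the 10, and for 58% of all genes. The difference in log2 ratio was at least 1 downward for 7 of the 10, where 15.7% of all genes had such a difference. In the nuo-6 triple mutant against nuo-6, 7 of 10 were lower and 0 higher, where 16.9% of all genes were lower and 6.92% higher, nlp-28 by 12.9-fold, nlp-27 by 6.59-fold, nlp-26 by 6.55-fold, nlp-34 by 5.66-fold and nlp-30 by 3.76-fold.

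**Figure D5:**
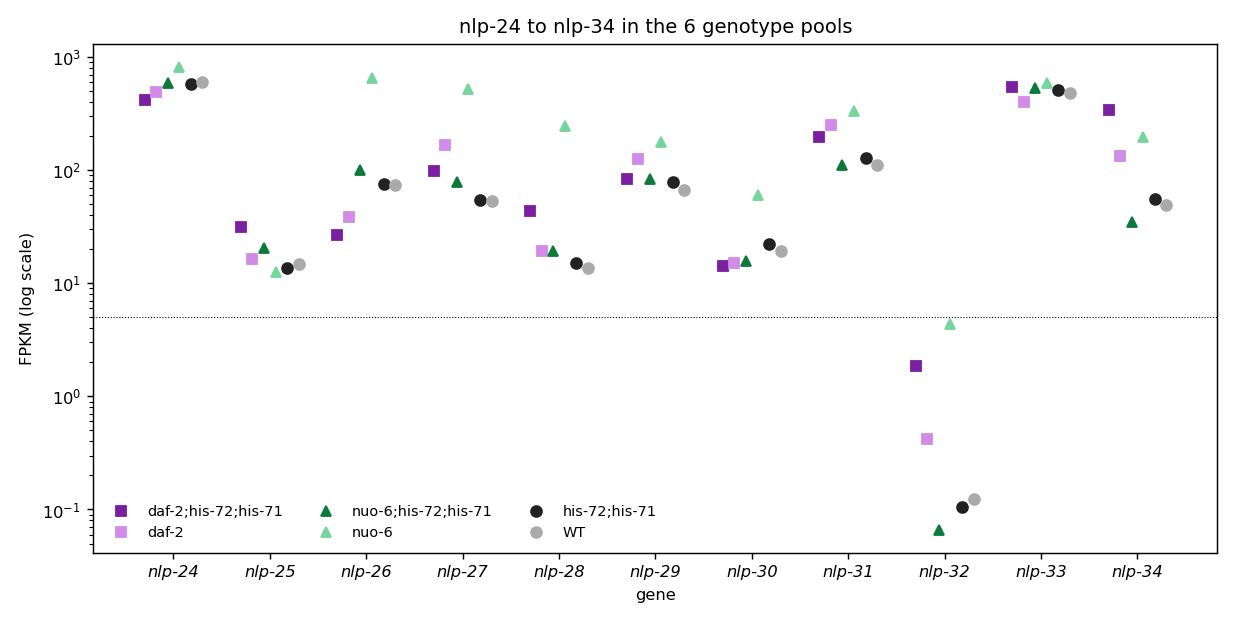
FPKM on a log axis for nlp-24 to nlp-34, with 1 symbol per genotype pool and a dotted line at 5 FPKM. The light green nuo-6 triangles are the highest symbol for nlp-26 to nlp-31, at 657, 518, 247, 179, 59.8 and 332 FPKM, while nlp-34 is highest in the daf-2 triple mutant at 338 FPKM.

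Several values moved together with these ratios. Transcripts of the group are short, with a median of 377 bases, and all genes under 500 bases had a median log2 ratio of 1.001 in nuo-6 against WT and -0.74 in the nuo-6 triple mutant against nuo-6. Relative to their own length class the counts came to 5 of 10 higher in the first contrast and 5 of 10 lower in the second. Relative to the length class, the shares of all genes higher or lower were not computed. Adult onset genes summed to 3354 FPKM in nuo-6, against 411 in WT, and 10 moulting genes to 721 FPKM in nuo-6 and 1491 in WT. Epidermal markers summed to 322 FPKM in nuo-6 and 573 in WT. Of the 9 compared 0 were higher and 3 lower, where 20.6% of all genes were higher and 5.47% lower. The lower ones were dpy-7 (101 FPKM in nuo-6 and 218 in WT), bus-8 (24.1 and 88.4) and nhr-25 (2.95 and 10.7). Of the 9, 8 had a ratio below 1 and 1 above, with a median log2 ratio of -0.52. The part of stage and length in the result was not tested.

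Other genes of the epidermal response were set beside the group. The caenacins (cnc genes), a related family of epidermal antimicrobial peptides, were 5 of 7 higher in nuo-6 than in WT and 0 lower, where 20.6% of all genes were higher and 5.47% lower. With cnc-9 and cnc-11 left out, which were under 5 FPKM in WT, 3 of 5 were higher, where 14.3% of all genes that reached 5 FPKM in both pools were. The 3 included cnc-3 with 280.4 FPKM in nuo-6 and 71.9 in WT and cnc-10 with 172 FPKM in nuo-6 and 57.2 in WT. In the nuo-6 triple mutant against nuo-6, 4 of 7 caenacins were lower and 0 higher, where 16.9% of all compared genes were lower. Of those that reached 5 FPKM in both pools 2 of 5 were lower, where 9.28% of all such genes were. The lower genes included cnc-3, by 2.76-fold. Transcripts of the 5 are short, from 315 bases in cnc-8 to 443 in cnc-3. Their median log2 ratio was 1.08 in nuo-6 against WT and -0.92 in the nuo-6 triple mutant against nuo-6. All compared genes under 500 bases had medians of 1.001 and -0.74. The 15 signalling genes of this response, such as the p38 kinase gene pmk-1 and the adaptor gene tir-1, gave no such counts: 0 of 14 compared were higher or lower in either contrast, with median log2 ratios of -0.45 in nuo-6 against WT and 0.50 in the nuo-6 triple mutant against nuo-6. Their transcripts are longer, such as 1671 bases for pmk-1 and 3712 for tir-1. The part of length in these counts was not tested.

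With the daf-2 mutation some of nlp-24 to nlp-34 were also higher. In daf-2 against WT, 3 of 10 were higher and 0 lower, where 15.1% of all genes were higher and 13.2% lower. The 3 were nlp-27 (3.12-fold), nlp-34 (2.77-fold) and nlp-31 (2.28-fold). Scaled to neuron markers, 0 were higher and 4 lower, with no share of all genes computed on that scale. In the daf-2 triple mutant against the double mutant, 3 were higher and 1 lower, where 13.2% of all genes were higher and 13.5% lower. nlp-34 had 338 FPKM in the daf-2 triple mutant, 135 in daf-2, 34.7 in the nuo-6 triple mutant, 196 in nuo-6, 55.6 in the double mutant and 48.7 in WT, 6.07-fold higher in the first pool than in the double mutant. nlp-28 was 2.88-fold and nlp-25 2.30-fold higher, whereas nlp-26 was 2.84-fold lower. Against daf-2 itself the triple mutant had 2 of 10 higher, nlp-34 (2.504-fold) and nlp-28 (2.25-fold), and 0 lower, where 17.1% of all genes were higher and 12.3% lower. The count of higher genes was near that share. Of 8 caenacins compared there 2 were higher and 2 lower. The higher ones were cnc-9 (153 FPKM in the daf-2 triple mutant and 2.42 in daf-2) and cnc-7 (14.9 and 3.57). Both were under 5 FPKM in daf-2 and so entered through the pool where they are high. Of the 6 that reached 5 FPKM in both pools, 0 were higher and 2 lower, where 9.36% of all genes were higher and 11.5% lower. One of the lower genes, cnc-8, had 230.4 FPKM in the daf-2 triple mutant and 612 in daf-2.

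nlp-39 stood apart from all other members. It had 45.5 FPKM in the daf-2 triple mutant, 0.0127 in daf-2, 0.0122 in the nuo-6 triple mutant, 0.0777 in nuo-6 and 0.0124 in the double mutant, and it was listed at 0 in WT. The gene is listed on chromosome I from 12461644 to 12462097. Of the genes listed beside it, named here after their values were seen, C54C8.12 had 58.0 FPKM in the daf-2 triple mutant and at most 0.0304 in the other pools, and clec-11 had 2.59 FPKM in the daf-2 triple mutant and at most 0.0147 in the other pools. gly-15, on its other side, had at most 0.428 FPKM in every pool. Of the 8 adult onset genes, the 5 vit genes, which encode yolk proteins, were highest in this pool too, while bli-1 was highest in WT and bli-2 and col-19 in nuo-6.

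Genes that have since received nlp names offer a set that the name rule did not take in. Of 102 genes that now carry an flp or nlp name with a number, 31 stand in the tables under another name. In daf-2 against WT, 17 of 28 compared were higher and 0 lower, where 15.1% of all genes were higher, with a median log2 ratio of 1.25, and all 28 had a ratio above 1. Of the 28, 25 reached 5 FPKM in both pools, and 15 of these were higher, where 11% of all such genes were. The rest reached it in daf-2 alone, so that their ratio above 1 was fixed by the filter. In the daf-2 triple mutant against the double mutant, 2 of 27 were higher and 0 lower (median 0.47), below the 13.2% of all genes, and in the daf-2 triple mutant against daf-2, 5 of 28 were lower and 0 higher (median -0.62), where 12.3% of all genes were lower. In nuo-6 against WT 2 of 25 were higher and 4 lower, where 20.6% of all genes were higher and 5.47% lower. In the nuo-6 triple mutant against nuo-6 11 of 26 were higher and 0 lower (median 0.75), where 6.92% of all genes were higher. Of the 23 that reached 5 FPKM in both pools 10 were higher, where 3.94% of all such genes were. The most abundant of the 31 in daf-2, H05L03.3, now named nlp-49, had 200.1 FPKM in the daf-2 triple mutant, 386 in daf-2, 243 in the nuo-6 triple mutant, 56.7 in nuo-6, 122 in the double mutant and 138 in WT. The medians of these genes had the same sign as those of the 64 in all contrasts except the double mutant against WT.

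The tables also list the cells in which a gene is known to be expressed, and 48 of the 64 genes carry such terms. In daf-2 against WT the 25 genes with the term head neuron had a median log2 ratio of 1.001 with 13 higher, the 10 annotated to the ASI sensory neurons 0.91 with 5 higher, and the 16 annotated to the intestine 0.89 with 6 higher, where 15.1% of all genes were higher. In the nuo-6 triple mutant against nuo-6 the medians were 0.54 for head neuron, 0.69 for ASI and 0.51 for intestine. The medians of the whole set were 1.14 and 0.52 in these contrasts. Genes can carry several of these terms, so the 3 groups overlap. On the chromosomes, 23 of the 75 genes lie on X and 17 on V.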

How the data were processed

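Strandedness and read length of the mRNA libraries are not given in the sources used here. The authors' deposited values are FPKM, in 6 tables of 20484 genes, 1 per genotype. Per the submitters' processing notes the tools were FastQC, STAR, Cufflinks and Cuffdiff, without versions or build. The sources used here do not say how a genotype's 5 replicates became 1 value. The tables' positions were compared with the WBcel235 annotation: all 75 members lie on the same chromosome there and 16 have an identical start or end.

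Ratios were computed from the deposited FPKM with Python 3.11.15, pandas 2.3.3 and numpy 2.4.6, with no pseudocount or rescaling, and calls used a ratio of 2 and a minimum of 5 FPKM in the higher pool. With 1 value per genotype there was no test. Call and scaling functions were tested on simulated data. Transcript length is that of the longest annotated transcript, known for 20179 genes. Members and lists were chosen with earlier results of these data known. Named were, per contrast, up to 6 members called in each direction by size of ratio, the 10 members with the highest mean FPKM and nlp-24 to nlp-34. Members beyond this rule, such as flp-10, flp-18, flp-21, nlp-3 and the smaller calls of the nuo-6 contrasts, were named after their values were seen, for their roles or to complete a short count. The same holds for flp-17 in daf-2 against WT, which met the rule only in the nuo-6 triple mutant against the double mutant. Alternatives were another ratio, other minimum levels, a pseudocount, other scalings, the length class and leaving out genes with a shared position. Sequences of precursors and promoters were not used here.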

Additional observations from a re-analysis of the deposited data

Results flagged for a closer look

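Some genes differed in opposite directions under the same mutation in 2 backgrounds, and in none of these cases could the difference be tested. For the nuo-6 mutation, with H3.3 and without H3.3, the log2 ratio of flp-2 was -1.06 and 1.06, and that of nlp-4 was 1.73 and -1.36. For H3.3 loss in the daf-2 mutant and in the nuo-6 mutant, the log2 ratios were -1.09 and 1.51 for flp-17, -1.21 and 1.21 for flp-33, -1.33 and 1.74 for nlp-35 and -1.47 and 1.70 for nlp-37. For 2 genes of the cluster on chromosome V they ran the other way, at 1.17 and -3.69 for nlp-28 and 1.32 and -2.4997 for nlp-34. The rest of the cluster, nlp-27, nlp-29, nlp-30 and nlp-31, stood below the parent mutant in both triple mutants. For nlp-30 the gap was slight with daf-2 (14.4 FPKM in the triple mutant and 15.2 in daf-2). The value of nlp-4 rests on levels under 16 FPKM in all pools.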

How the results depend on the processing

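No paired analysis was possible because the tables hold 1 value per genotype, and for the same reason no replicate could be left out. Except for the minimum in both pools, calls under the alternatives were counted for members only. No share of all genes therefore stands beside those counts. Counts of flp and other nlp genes are given first. With a ratio of 1.5, lower genes numbered 15 in nuo-6 against WT, 40 in the daf-2 triple mutant against daf-2, 8 in the nuo-6 triple mutant against nuo-6 and 5 in the daf-2 triple mutant against the double mutant, higher genes 22 in that last contrast and 25 in the nuo-6 triple mutant against the double mutant, and the double mutant against WT had 1 higher and 2 lower. With no minimum, daf-2 against WT had 2 lower, the double mutant against WT 1 higher, the daf-2 triple mutant against daf-2 3 higher, the nuo-6 triple mutant against nuo-6 7 lower, and both contrasts with the double mutant 2 lower. With a minimum of 20 FPKM, 0 were lower in those 2 contrasts and in the double mutant against WT. A pseudocount of 1 FPKM gave 0 lower in that contrast, as did leaving out members that share a listed position, which turned its median to 0.0573 and left 3 higher in the nuo-6 triple mutant against the double mutant. With pools scaled to equal median ratio, nuo-6 against WT had 4 higher and 10 lower, the daf-2 triple mutant had 6 lower against daf-2 and 5 higher against the double mutant. Scaled to neuron markers, daf-2 against WT had 1 higher and 1 lower, nuo-6 against WT 15 and 0 (median 0.37), the daf-2 triple mutant against daf-2 3 and 0, the nuo-6 triple mutant against nuo-6 10 and 8, and the daf-2 triple mutant against the double mutant 6 higher. Relative to the length class, nuo-6 against WT had 1 higher and 19 lower, the daf-2 triple mutant against daf-2 3 lower, the nuo-6 triple mutant against nuo-6 1 lower and the daf-2 triple mutant against the double mutant 6 higher. With at least 5 FPKM required in both pools, 58 genes were compared in each contrast, with 0 lower in the double mutant against WT and in the nuo-6 triple mutant against the double mutant, 0 higher in the daf-2 triple mutant against daf-2, and 1 higher and 0 lower in the daf-2 triple mutant against the double mutant.

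For nlp-24 to nlp-34, a ratio of 1.5 gave 1 lower in daf-2 against WT, in the daf-2 triple mutant against daf-2 and in the nuo-6 triple mutant against the double mutant, 1 higher in the nuo-6 triple mutant against nuo-6, and 5 higher and 2 lower in the daf-2 triple mutant against the double mutant. Scaled to neuron markers, daf-2 against WT had 0 higher and 4 lower (median -0.50), the daf-2 triple mutant against daf-2 4 higher (median 0.57), and the median in the double mutant against WT was -0.0543. Relative to the length class, daf-2 against WT had 1 lower, and medians turned to 0.11 in the daf-2 triple mutant against daf-2 and to -0.00972 in the nuo-6 triple mutant against the double mutant. These 2 scalings and the minimum in both pools were chosen after the data were seen. Where a construction of the alternative does not show it, the cause was not tested.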
